A study of Mus musculus with 15 samples.

Results

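Eosinophil granule genes were examined in neutrophils isolated from a mouse tumor model and from mice without tumors. The set comprised 9 genes, chosen by name in the probe annotation: Prg2, Prg3, Epx, Ear1, Ear2, Ear6, Ear10, Il5ra and Ccr3. Of these, 7 had a probe among the probes tested, 1 probe each, out of 11074 named genes tested in all. Ear1 and Ear2 were matched to no probe in the annotation used, so that their signals were not analysed here. RNA was hybridized to Illumina Mouse Ref-8 v2 bead arrays, 15 in all. Tumor-associated neutrophils (TAN, n = 4 arrays) came from flank tumors of the AB12 line, a BALB/c mesothelioma line, grown to 250 to 300 mm3 (about 12 to 15 days). Granulocytic myeloid-derived suppressor cells (G-MDSC, n = 4) came from spleens of mice whose AB12 tumors had reached 500 to 700 mm3 (about 21 to 25 days). Naïve neutrophils (NN, n = 7) came from the bone marrow of BALB/c mice without tumors. All 3 populations were defined as Ly6G+, and RNA of 2 to 4 mice was pooled per array. The tumors came from 1 cell line, and tissue, tumor stage and day of harvest changed together with the population. For spleens and tumors the methods state digestion, CD11b beads and a Ly6G flow sort, and for NN a Percoll gradient of flushed marrow, whereas the labels give beads and the sort for all populations.

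Eosinophils and neutrophils are sister granulocytes that mature in the bone marrow from shared myeloid precursors. An eosinophil fills its specific granules with basic, toxic proteins: major basic protein forms the crystalline core, and around it lie eosinophil peroxidase and ribonucleases of the RNase A family. Most of the RNA for these proteins is made while the granules are being built, in the marrow precursor, and much less in the mature cell. Interleukin 5, acting through its receptor, drives the growth and survival of the lineage, and the eotaxins, acting through CCR3, draw eosinophils into tissue. In bulk samples such as these, fewer cells of a type and less RNA per cell cannot be told apart.

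Values are log2 normalized signals, in which 1 unit is a doubling. The 9375 probes outside the authors' own table served as a measure of background. A probe was called above background on an array when it exceeded their 95th percentile there, a limit of 6.45 to 6.55 on the log2 scale depending on the array. Differences between group means were tested with limma over all 15 arrays, and a gene was called up- or down-regulated at a Benjamini-Hochberg adjusted p under 0.05. The number of arrays limits the precision. Where no array of a group was above background, the fold is written as "at least", counted from the lowest signal above background.

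Several arrays stood apart. Median signal of these background probes was 84.2 to 94.3 in TAN, 106 to 114 in G-MDSC and, in NN, 110 in NN 6, 105 in NN 7 and 76.2 to 91.9 in NN 1 to NN 5, so that arrays of high background (NN 6, NN 7 and all G-MDSC) and of low background (NN 1 to NN 5 and all TAN) were also compared separately. Among 2957 genes with several probes, probes of 1 gene lay over 4-fold apart relative to NN for 5.48 to 22.6% of genes in TAN (5.48% in TAN 3), 1.32 to 2.47% in G-MDSC and at most 0.0676% in NN. Each eosinophil gene had 1 probe, so that this check could not be made for it, and its part in the results was not tested. The isolated cells carried neutrophil markers, with a mean over 11 of them of 11.52 to 12.52 in TAN, 13.88 to 14.14 in G-MDSC and 14.48 to 14.62 in NN.

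Prg2, which encodes major basic protein, had signals of 7.41, 7.55, 6.38 and 7.98 in TAN 1 to 4. Its signals were 9.51, 6.70, 7.48 and 7.92 in G-MDSC 1 to 4. In the 7 NN its signal was 14.07 at the lowest, 14.35 at the median and 14.92 at the highest. All NN lay far above every TAN and every G-MDSC, TAN and G-MDSC overlapped, TAN 3 fell below background, and G-MDSC 1 lay above the other G-MDSC. The deposited signals, before any background correction, were 94.5 to 306 in TAN, 148 to 923 in G-MDSC and 11500 to 30000 in NN. Prg2 lies on chromosome 2 (GRCm38.p6, chr2:84980461-84983632).

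Prg3, next to Prg2 on the same chromosome (chr2:84988196-84996559), encodes a homolog of major basic protein found in the same granules. Its signals were 6.20, 6.03, 5.82 and 6.04 in TAN, all below background. They were 6.93, 6.36, 6.31 and 6.27 in G-MDSC, where G-MDSC 1 alone was above background. In NN they ran from 8.80 through a median of 9.19 to 9.57, apart from both other groups.

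Epx (chr11:87863997-87875536) encodes eosinophil peroxidase, the heme enzyme that makes hypobromous acid. Signals were 6.35, 6.32, 6.31 and 6.30 in TAN, all below background, and 6.60, 6.36, 6.53 and 6.23 in G-MDSC, 2 of them above it. The 7 NN ran from 8.56 through a median of 9.08 to 9.51, again with no overlap with TAN or G-MDSC.

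Ear6 (chr14:51853768-51854643) and Ear10 (chr14:43922898-43923596) belong to the eosinophil-associated ribonucleases, a rodent family that has multiplied by gene duplication. Ear6 had signals of 6.22, 6.15, 6.42 and 6.23 in TAN, none above background. In G-MDSC it had 8.99, 6.93, 6.67 and 7.25, all above background and again highest in G-MDSC 1. In NN it ran from 11.30 through a median of 11.95 to 12.18. The 3 groups did not overlap for Ear6.

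Ear10 was the 1 granule gene above background on every array. It had 8.01, 8.11, 6.95 and 8.15 in TAN, with TAN 3 lowest. In G-MDSC it had 8.67, 9.42, 9.52 and 9.87, and here G-MDSC 1 was the lowest of its group. In NN it ran from 10.35 through a median of 10.59 to 11.07. TAN, G-MDSC and NN formed 3 separate steps.

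Il5ra (chr6:106710375-106749037) encodes the subunit of the interleukin 5 receptor that binds the ligand. Its signals were 7.18, 7.31, 6.82 and 6.83 in TAN and 6.60, 6.36, 6.29 and 6.09 in G-MDSC. In NN they ran from 6.27 through a median of 6.65 to 6.81. All 4 TAN were above background, against 1 of 4 G-MDSC and 5 of 7 NN, and every value lay within 1 log2 unit of the background limit. TAN overlapped with neither group, and G-MDSC and NN overlapped with each other.

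Ccr3 (chr9:124017825-124031692) encodes the receptor for eotaxins. Its signals were 6.21, 6.29, 6.50 and 6.19 in TAN, where 1 of 4 was above background. They were 7.15, 7.50, 7.72 and 7.44 in G-MDSC and, in NN, 7.19 at the lowest, 7.41 at the median and 7.59 at the highest. G-MDSC and NN covered the same range, and TAN lay below both.

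**Figure D1:**
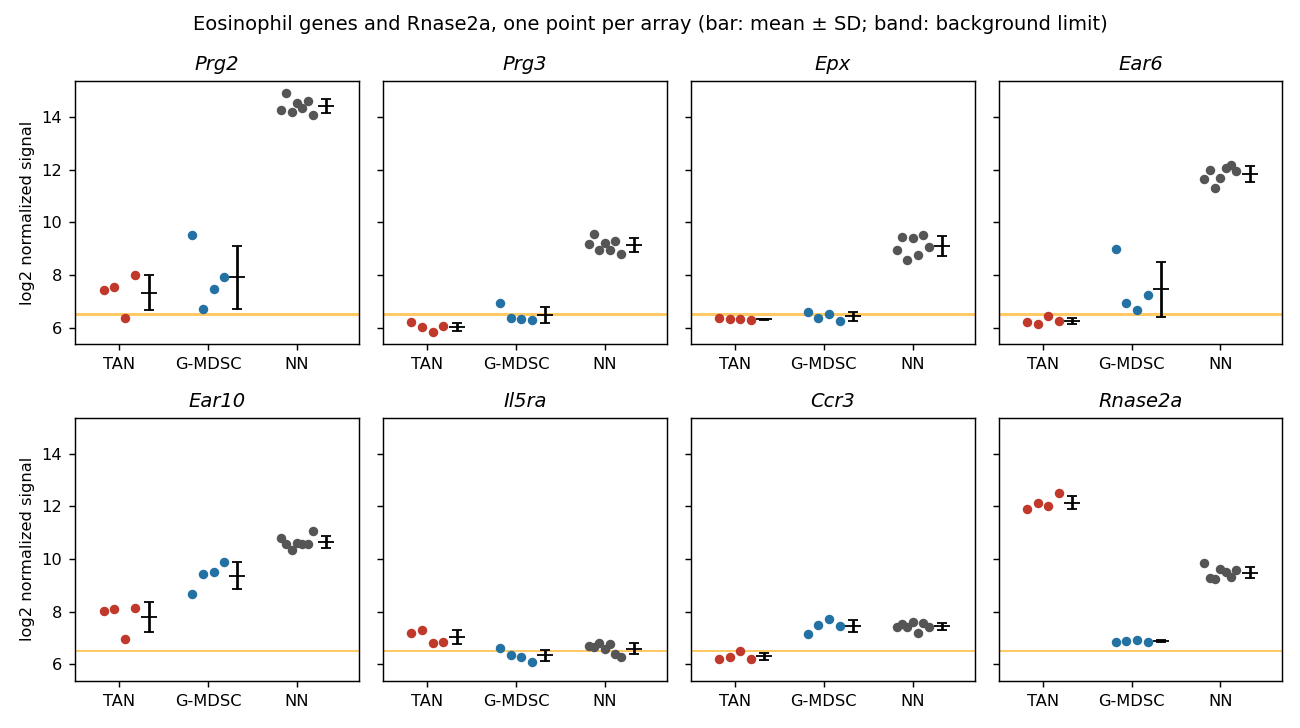
Log2 normalized signal (y axis) of the 7 measured eosinophil genes and of Rnase2a in TAN, G-MDSC and NN (x axis), 1 point per array, with the group mean ± SD as a bar and the range of the background limits (6.45 to 6.55) as a band. Prg2, Prg3, Epx, Ear6 and Ear10 are high in all 7 NN, whereas Rnase2a is highest in the 4 TAN (11.91 to 12.51).

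The first comparison asked how G-MDSC of the spleen differed from NN of the marrow. All 5 measured granule protein genes were down-regulated in G-MDSC, and both receptor genes were not called. Prg2 averaged 7.90 ± 1.19 in G-MDSC and 14.43 ± 0.28 in NN (SD, n = 4 and 7), a fall by 6.52 on the log2 scale (standard error 0.40, limma adjusted p = 2.7e-09), which left 1.09% of the NN level. Ear6 fell by 4.37 (standard error 0.32, limma adjusted p = 2.3e-08). Prg3 fell by 2.67 (standard error 0.15, limma adjusted p = 1.3e-09), and Epx also fell by 2.67 (standard error 0.16, limma adjusted p = 3e-09), as measured signals with 1 and 2 of 4 G-MDSC above background. Ear10, which stayed well above background in both groups, fell by 1.28 (standard error 0.24, limma adjusted p = 0.00046), or 2.42-fold.

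For Il5ra the difference was -0.26 (standard error 0.13, limma adjusted p = 0.15), and for Ccr3 it was 0.01 (standard error 0.11, limma adjusted p = 0.95). Thus 5 of 7 measured genes were called lower, where 19.7% of all 11074 genes were called lower and 18.3% higher. With the arrays scaled to a common median, 1503 of all genes were called lower and 2387 higher, against 2183 and 2028 here. The 5 called genes were also the 5 whose G-MDSC and NN arrays did not overlap, against 33.7% of all genes. The median difference over the 7 genes was -2.67, against -0.01 over all genes. Ordered by size of fall among all genes, Prg2 ranked 3 and Ear6 ranked 16, while Prg3 ranked 93, Epx 94 and Ear10 503.

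Within the arrays of high background (4 G-MDSC against NN 6 and NN 7), the difference was -6.44 for Prg2, -2.58 for Prg3, -2.87 for Epx, -4.61 for Ear6 and -1.46 for Ear10, with limma adjusted p of at most 0.015. Without G-MDSC 1, the difference was -7.06 for Prg2 and -4.88 for Ear6. Relative to the average of G-MDSC 2 to 4, G-MDSC 1 differed by 2.15 log2 units for Prg2, by 2.04 for Ear6 and by -0.94 for Ear10. In G-MDSC 1 the mean over 8 B cell markers was 9.91 and that over 8 T and NK cell markers 9.64, the highest of any array, and their part in the values of this array was not tested.

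The second comparison set TAN against NN. All granule protein genes and Ccr3 were down-regulated in TAN, and Il5ra was up-regulated. Prg2 averaged 7.33 ± 0.68 in TAN and 14.43 ± 0.28 in NN (SD, n = 4 and 7), a fall by 7.10 on the log2 scale (standard error 0.40, limma adjusted p = 3.5e-10). With TAN 3 below background this is a difference of measured signals and is not given as a fold. Over the alternatives it ran from -8.4 to -6.78. Ear6 was at least 39.5-fold lower (limma adjusted p = 4.9e-10), Prg3 at least 6.12-fold lower (limma adjusted p = 7.7e-11) and Epx at least 5.95-fold lower (limma adjusted p = 6.8e-10), since no TAN array was above background for any of them. Ear10 fell by 2.84 (standard error 0.24, limma adjusted p = 3.9e-08), or 7.18-fold.

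Ccr3 averaged 6.30 ± 0.14 in TAN and 7.44 ± 0.14 in NN and fell by 1.15 (standard error 0.11, limma adjusted p = 2.5e-07), with 1 of 4 TAN above background. Il5ra averaged 7.04 ± 0.25 in TAN and 6.59 ± 0.20 in NN and rose by 0.44 (standard error 0.13, limma adjusted p = 0.0093), with 5 of 7 NN above background. With TAN 3 as the only TAN, the array whose probes of 1 gene diverged least, the rise of Il5ra was 0.23 (limma adjusted p = 0.43) and was no longer called, and with plain background subtraction its limma adjusted p was 0.099.

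In all, 6 of 7 genes were called lower in TAN and 1 higher, where 26.2% of all genes were called lower and 36.9% higher. All 7 had groups that did not overlap, against 44.5% of all genes. The median difference of the 7 genes was -2.84, against 0.12 over all genes. By size of fall among the 11074 genes, Prg2 ranked 4, Ear6 11, Prg3 184, Ear10 220, Epx 236, Ccr3 1233 and Il5ra, which rose, 7703. Within the arrays of low background (4 TAN against NN 1 to NN 5), the difference was -7.13 for Prg2, -3.15 for Prg3, -2.70 for Epx, -5.48 for Ear6, -2.77 for Ear10, -1.13 for Ccr3 and 0.34 for Il5ra, each with a limma adjusted p of at most 0.037. With TAN 3 as the only TAN, the difference was -8.05 for Prg2 and -3.70 for Ear10.

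The third comparison, of TAN with G-MDSC, covered the 2 tumor-related populations. Both ribonucleases, Prg3 and Ccr3 were lower in TAN and Il5ra was higher, and the calls of Ear10 and Ccr3 were the ones that held with the background level as a block. Ear10 averaged 7.80 ± 0.57 in TAN and 9.37 ± 0.51 in G-MDSC (SD, n = 4 each) and was 2.96-fold lower in TAN (limma adjusted p = 0.00014). Ear6 was at least 1.91-fold lower in TAN, with a measured difference of -1.21 (limma adjusted p = 0.0095), or -0.70 without G-MDSC 1. Ccr3 averaged 6.30 ± 0.14 in TAN and 7.45 ± 0.24 in G-MDSC, a log2 difference of -1.16 (limma adjusted p = 2e-06) with 1 of 4 TAN above background. Il5ra averaged 7.04 ± 0.25 in TAN and 6.34 ± 0.21 in G-MDSC, a log2 difference of 0.70 (limma adjusted p = 0.001) with 1 of 4 G-MDSC above background. Since some arrays lay below background, these 2 differences are of measured signals and are not given as folds.

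Prg3 was called lower in TAN by 0.44 (standard error 0.17, limma adjusted p = 0.037), but 7 of the 8 arrays were below background, so that no fold is given. Its call was lost without G-MDSC 1, the array above background (limma adjusted p = 0.13), and without TAN 2, TAN 3 or TAN 4 (limma adjusted p = 0.064, 0.076 and 0.06). Prg2 differed by -0.57 (standard error 0.45, limma adjusted p = 0.28) and Epx by -0.11 (standard error 0.19, limma adjusted p = 0.63), and neither was called. The calls thus numbered 4 lower and 1 higher of 7, where 22.6% of all genes were called lower and 36.4% higher (50.8% of the calls were higher with arrays scaled to a common median, against 61.7% here). The groups did not overlap for the same 5 genes (Prg3, Ear6, Ear10, Il5ra and Ccr3), against 44.4% of all genes. No arrays of 1 background level held both groups. With the background level as a block in the model, Ear10 (-1.31, limma adjusted p = 0.028) and Ccr3 (-1.10, limma adjusted p = 0.00085) were still called, while Ear6 (-0.87, limma adjusted p = 0.27), Il5ra (0.33, limma adjusted p = 0.24) and Prg3 (-0.58, limma adjusted p = 0.12) were not.

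**Figure D2:**
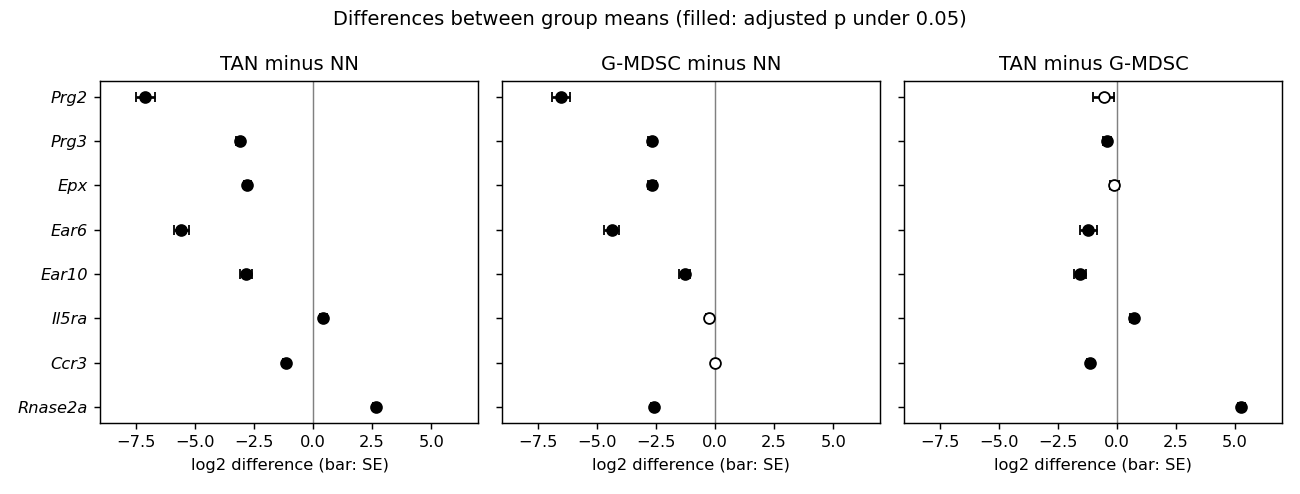
Log2 difference between group means (x axis, bar: standard error) for the 7 measured eosinophil genes and Rnase2a (rows) in the 3 comparisons, with filled points for limma adjusted p under 0.05. Prg2 lies furthest left against NN in both populations (-7.10 in TAN and -6.52 in G-MDSC), and Rnase2a lies right of 0 in TAN (2.66) and left of 0 in G-MDSC (-2.60).

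Of 7 further ribonucleases of the family that were looked up, 1 had a probe, Rnase2a, formerly named Ear11 (chr14:51255261-51256112). Rnase2a is known as a member that mouse macrophages express under type 2 stimulation. Its signals were 11.91, 12.15, 12.03 and 12.51 in TAN and 6.85, 6.90, 6.92 and 6.86 in G-MDSC. In NN they ran from 9.26 through a median of 9.49 to 9.84. The 3 groups did not overlap, and their order, with TAN highest and G-MDSC lowest, matched that of neither Ear6 nor Ear10.

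Rnase2a rose in TAN by 2.66 against NN (standard error 0.13, limma adjusted p = 5.6e-11) and fell in G-MDSC by 2.60 against NN (standard error 0.13, limma adjusted p = 2.5e-10). TAN were 38.4-fold above G-MDSC (log2 difference 5.26, limma adjusted p = 3e-13). The paper, from these arrays, also lists this gene, as Ear11, among those most raised in TAN against G-MDSC. Within the arrays of low background the rise in TAN was 2.65, and within those of high background the difference in G-MDSC was -2.55. The mean over 9 macrophage markers was 10.30 to 12.90 in TAN, 9.55 to 10.02 in G-MDSC and 9.34 to 10.22 in NN. The 12.90 was that of TAN 3, whose Rnase2a signal was 12.03. Of the 9 markers, 5 were called higher in TAN against NN, where 36.9% of all genes were called higher. The part of macrophage RNA in the rise of Rnase2a was not tested. The genes of this family are close relatives, and probe sequences were not used here, so that signal from other members at the Ear6, Ear10 and Rnase2a probes was not tested.

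The sequences before the start of these genes show how close the ribonucleases are to each other and where the granule genes differ. The 250 bases before a transcript start annotated by RefSeq are given 5′ to 3′ on the gene's strand (GRCm38.p6), in lower case, with each GATAA, the core letters bound by GATA factors, or its reverse complement TTATC in capitals. For Prg3 and Ccr3 the transcript start used lies 19 and 4146 bases inside the locus given above, and for the other genes it is the edge of the locus.
Prg3 (chr2:84987965-84988214, plus strand): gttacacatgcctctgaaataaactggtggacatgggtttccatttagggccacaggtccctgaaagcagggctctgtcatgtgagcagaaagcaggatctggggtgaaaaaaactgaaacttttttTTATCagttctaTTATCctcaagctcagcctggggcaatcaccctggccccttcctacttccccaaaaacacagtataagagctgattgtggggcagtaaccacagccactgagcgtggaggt
Epx (chr11:87875537-87875786, minus strand): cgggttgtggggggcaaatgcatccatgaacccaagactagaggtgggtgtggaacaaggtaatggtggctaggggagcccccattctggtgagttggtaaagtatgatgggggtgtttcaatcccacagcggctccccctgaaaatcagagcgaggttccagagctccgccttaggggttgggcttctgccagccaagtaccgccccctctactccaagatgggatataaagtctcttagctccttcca
Ear6 (chr14:51853518-51853767, plus strand): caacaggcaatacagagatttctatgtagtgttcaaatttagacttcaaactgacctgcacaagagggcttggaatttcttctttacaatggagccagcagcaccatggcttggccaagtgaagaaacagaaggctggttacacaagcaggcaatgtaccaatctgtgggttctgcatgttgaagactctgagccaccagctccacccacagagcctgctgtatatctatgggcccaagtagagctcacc
Ear10 (chr14:43923597-43923846, minus strand): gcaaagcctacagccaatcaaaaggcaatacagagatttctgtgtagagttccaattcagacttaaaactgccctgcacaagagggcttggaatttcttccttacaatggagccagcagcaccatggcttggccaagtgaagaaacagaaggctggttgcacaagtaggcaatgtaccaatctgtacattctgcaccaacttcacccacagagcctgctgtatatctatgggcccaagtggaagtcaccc
Rnase2a (chr14:51256113-51256362, minus strand): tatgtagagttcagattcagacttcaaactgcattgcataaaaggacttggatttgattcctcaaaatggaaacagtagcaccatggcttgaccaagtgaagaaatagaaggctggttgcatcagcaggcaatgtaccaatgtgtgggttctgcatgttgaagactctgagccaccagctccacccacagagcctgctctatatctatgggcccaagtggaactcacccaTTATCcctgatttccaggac

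Both strands were searched for GATAA, which does not overlap with itself. Prg3 held 2 copies, 123 and 111 bases before the transcript start used, and 4.28% of 32851 mouse promoter windows of the same length held at least that many. Il5ra, Ccr3 and Rnase2a held 1 copy each, at 73, 29 and 20 bases before the transcript start used, where 22.6% of windows held at least 1. Epx, Ear1, Ear2, Ear6 and Ear10 held none in this window. Prg2 had no entry among the promoter sequences used and was not searched. The match of letters is a description only. Aligned over their upstream windows, Ear10 and Ear1 were identical in 92.8% of columns, Ear10 and Ear2 in 92.8%, Ear1 and Ear2 in 98.4%, Ear10 and Ear6 in 85.7%, Ear6 and Rnase2a in 80.4%, and Ear10 and Rnase2a in 69.8%. Gaps inside an alignment counted as columns, so that the percentages depend in part on where gaps fell. Ear6 was 84.8% identical to Ear1 (250 columns) but 77.7% to Ear2 (273 columns). Ear6 and Ear10 both were down-regulated in both tumor-related populations. Rnase2a, whose window gave a higher percentage with Ear6 than with Ear10 by this measure, was down-regulated in G-MDSC but up-regulated in TAN. A relation between these windows and the changes was not tested.

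The granule genes varied little among the 7 NN, with SDs of 0.28 for Prg2, 0.26 for Prg3, 0.37 for Epx, 0.30 for Ear6 and 0.23 for Ear10. They did not vary as one. Across the 7 NN, which are independent pools, the signal of Prg3 followed that of Prg2 (Pearson r = 0.95, Spearman rho = 0.96), with r = 0.78 without NN 2 and NN 7, the arrays farthest from the median of Prg2. For Epx r was 0.71 and rho 0.71 (0.96 without NN 2 and NN 7), and for Ear6 r was 0.40 and rho 0.57 (0.69 without them). For Ear10 r was -0.41 and rho -0.36 (0.22 without them), so that its relation to Prg2 rested on those arrays, and for Ccr3 r was 0.57 and rho 0.61. These are descriptions over 7 arrays, given without a p.

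The 10 genes most like Prg2 in NN, by Pearson r among the 7574 genes above background on every NN, were Prss34 (0.978), Slc30a5 (0.975), Reln (0.955), Mnd1 (0.952), Acy1 (0.951), Prg3 (0.948), Mcpt8 (0.946), Cdkn2c (0.946), Cxcr1 (0.943) and Srm (0.943). Prss34 and Mcpt8 encode serine proteases of mouse basophils. Prss34 had signals of 6.42, 6.41, 6.35 and 6.31 in TAN and 7.42, 6.33, 6.21 and 6.47 in G-MDSC. In NN it ran from 7.97 through a median of 8.53 to 9.57, with NN 2 highest and NN 7 lowest, the same arrays at which Prg2 was highest and lowest. Within NN 1 to NN 5, the arrays of low background, the r with Prg2 was 0.98 for Prss34, 0.97 for Mcpt8, 0.92 for Prg3 and 0.86 for Epx. Mcpt8 was dim, at 6.58 to 7.09 over the 7 NN, near their background limits of 6.45 to 6.49. Cpa3, a mast cell and basophil carboxypeptidase, gave r = 0.92 and rho = 0.89 over the 7 NN and was picked out after its values were seen. For the other measured basophil and mast cell markers r is not given, so these values do not describe that list as a whole.

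**Figure D3:**
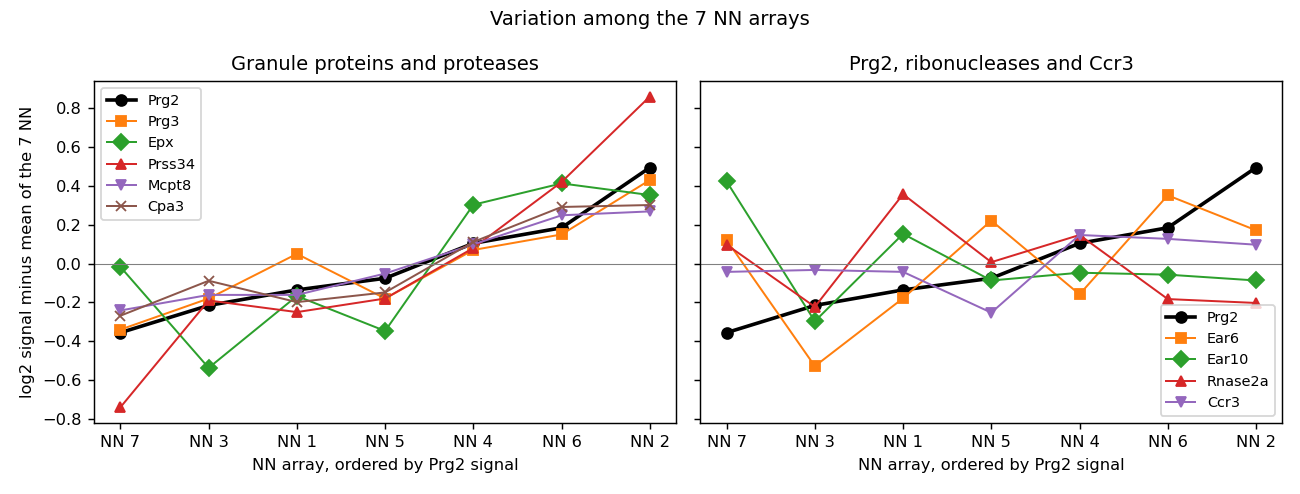
Log2 signal of each gene minus its mean over the 7 NN (y axis) in the NN arrays, ordered by Prg2 (x axis); each line is a gene. Prg3 and the proteases Prss34, Mcpt8 and Cpa3 follow Prg2 (left), whereas Ear6, Ear10 and Rnase2a do not keep its order (right). Prss34 and Mcpt8 are drawn as genes most like Prg2, and Cpa3 was picked out after its values were seen. The other measured basophil and mast cell markers are not drawn.

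Over all 15 arrays, where a correlation mostly reflects the 3 groups, the genes most like Prg2 were Ces2g (r = 0.993), Prg3 (0.991), Mpo (0.989), Pxylp1 (0.988) and, each at 0.987, Slc38a5, H2ax, Tal1, Hace1, Mlst8 and Trp53inp2. Mpo encodes the myeloperoxidase of neutrophil precursors, and Tal1 a transcription factor of the erythroid lineage. Ear6 ranked 20 and Epx ranked 46 by this measure among the 11074 genes, while Ear10 ranked 718.

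Markers of other marrow cells were then set beside the granule genes. The erythroid, megakaryocyte and neutrophil precursor lists were picked because they moved with the granule genes, so their likeness followed from the choice. The mean over 8 erythroid markers was 6.90 to 7.23 in TAN, 7.20 to 7.83 in G-MDSC and 11.77 to 12.30 in NN, and all 8 were called lower in TAN and in G-MDSC. The mean over 8 megakaryocyte markers was 7.47 to 7.69 in TAN, 6.67 to 6.79 in G-MDSC and 10.91 to 12.19 in NN, with 7 called lower in TAN and 8 in G-MDSC. The mean over 9 markers of neutrophil precursors was 7.31 to 7.50 in TAN, 8.34 to 9.31 in G-MDSC and 11.66 to 12.41 in NN, and all 9 were called lower in both. Of all genes, 26.2% were called lower in TAN and 19.7% in G-MDSC. The list mean of the 7 measured eosinophil genes was 6.46 to 6.82 in TAN, 7.09 to 7.78 in G-MDSC and 9.66 to 10.10 in NN, lower in both populations like the means of these 3 lists, although Il5ra and Ccr3 did not share the fall in G-MDSC and Il5ra did not in TAN. The mean over the 11 neutrophil markers was lower too, at 11.52 to 12.52 in TAN and 13.88 to 14.14 in G-MDSC, against 14.48 to 14.62 in NN. Lists of B cell (8), T and NK cell (8), monocyte (7) and macrophage (9) markers did not fall in this way. In G-MDSC, 0, 1, 1 and 0 of them, in that order, were called lower and 0, 1, 4 and 1 higher. In TAN, 3, 2, 1 and 0 were called lower and 0, 1, 4 and 5 higher. The part of cells other than neutrophils in the values of these lists was not tested.

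Basophil and mast cell markers moved less evenly. Of 14 such genes, 7 were measured, with a mean of 7.77 to 7.95 in TAN, 7.58 to 8.24 in G-MDSC and 8.01 to 8.50 in NN. In TAN, Prss34 was at least 4.55-fold lower (limma adjusted p = 1e-06), and Mcpt8 (-0.59, limma adjusted p = 0.0015) and Cpa3 (-0.94, limma adjusted p = 0.0033) were lower, while Hdc (0.82, limma adjusted p = 3.7e-06) and Tpsab1 (0.63, limma adjusted p = 6.2e-05) were higher. In G-MDSC, Prss34 fell by 2.10 (limma adjusted p = 8.2e-06), and Mcpt8 (-0.58, limma adjusted p = 0.0036) and Fcer1a (-0.35, limma adjusted p = 0.031) were lower, while Hdc was higher (0.63, limma adjusted p = 0.00013). Within the arrays of high background the call of Mcpt8 was lost (-0.58, limma adjusted p = 0.12). Over all arrays Cpa3 stood at the threshold in G-MDSC (-0.64, limma adjusted p = 0.05), and 22 of 29 alternatives lost its call. Within the arrays of high background its difference was -0.65 (limma adjusted p = 0.38). Its limma adjusted p was up to 0.19 when single arrays were left out and 1.5e-05 without G-MDSC 1.

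**Figure D4:**
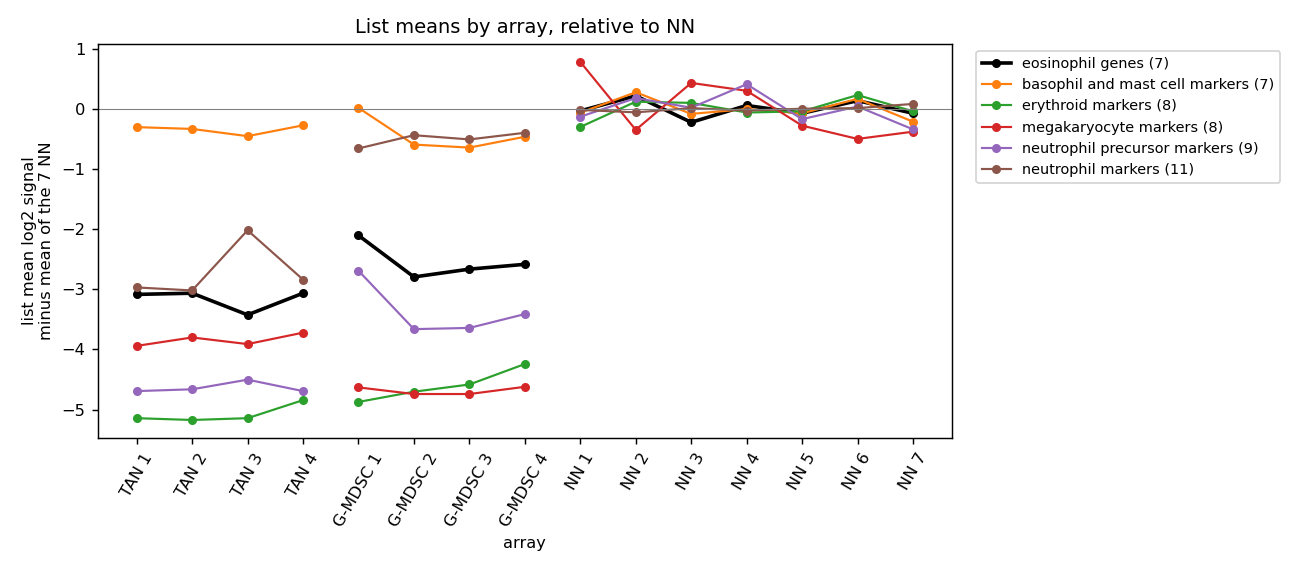
Mean log2 signal of each gene list minus its mean over the 7 NN (y axis) in the 15 arrays (x axis), with TAN, G-MDSC and NN from left to right; each line is a list, with its number of measured genes. The eosinophil genes and the erythroid, megakaryocyte and neutrophil precursor markers all lie below their NN level in every TAN and every G-MDSC, and these marker lists were picked because they moved with the granule genes. The neutrophil markers do so too.

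All 12 transcription factors of a list for the eosinophil lineage were measured. In TAN 8 fell and 4 rose (Irf8, Xbp1, Id2 and Trib1), and in G-MDSC 7 fell, 3 rose (Irf8, Xbp1 and Id2) and Spi1 and Trib1 were not called. Over all genes, 26.2% were called lower and 36.9% higher in TAN, and 19.7% lower and 18.3% higher in G-MDSC. Cebpe, needed for the late steps of both granulocyte lineages, fell by 5.13 in TAN (limma adjusted p = 6.8e-14) and differed by -2.99 in G-MDSC (limma adjusted p = 1.1e-10). Zfpm1, which encodes the GATA cofactor FOG1, fell by 2.79 in TAN (limma adjusted p = 2.1e-06) and differed by -4.23 in G-MDSC (limma adjusted p = 4.7e-08). Irf8 rose by 2.46 in TAN (limma adjusted p = 1.4e-07) and by 1.06 in G-MDSC (limma adjusted p = 0.0016), or 0.70 without G-MDSC 1. Within the arrays of high background the call of Irf8 in G-MDSC was lost (1.03, limma adjusted p = 0.13). Xbp1, required for eosinophil development in mice, rose by 2.44 in TAN (limma adjusted p = 3e-12) and by 0.77 in G-MDSC (limma adjusted p = 4.8e-06). The median difference of the list was -1.24 in TAN and -0.52 in G-MDSC, against 0.12 and -0.01 over all genes.

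Gata1, the factor that commits precursors to the eosinophil, erythroid and megakaryocyte lineages, was picked out after its values were seen. It had signals of 6.47, 6.29, 6.20 and 6.41 in TAN, none above background, and 6.55, 6.21, 5.99 and 6.40 in G-MDSC. In NN it ran from 7.28 through a median of 7.62 to 7.91, apart from both other groups. It was at least 2.05-fold lower in TAN (limma adjusted p = 5.9e-07), and in G-MDSC, where 1 of 4 arrays was above background, the measured difference was -1.27 (limma adjusted p = 9.3e-07).

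Of 13 further receptors of eosinophils, 5 were measured, and they did not fall with the granule genes in G-MDSC. Adgre1, which encodes F4/80 and marks mouse macrophages and eosinophils, is given by the brightest of its 3 probes. It rose by 2.39 in TAN (limma adjusted p = 1.2e-10) and by 0.89 in G-MDSC (limma adjusted p = 2.1e-05). Csf2rb2, a mouse beta chain of the interleukin 3 receptor, rose by 1.90 in TAN (limma adjusted p = 3.4e-06) and by 1.41 in G-MDSC (limma adjusted p = 0.00017). Csf2ra rose by 0.24 in TAN (limma adjusted p = 0.018, or 0.053 without TAN 1) and differed by 0.10 in G-MDSC (limma adjusted p = 0.38), and Il3ra was called in neither.

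Csf2rb encodes the beta chain through which Il5ra signals, and the brightest of its 3 probes is given here without the others. Its signals were 7.33, 7.04, 11.57 and 8.05 in TAN, where TAN 3 lay above every NN and the other TAN below every NN. They were 10.76, 10.61, 10.72 and 11.05 in G-MDSC and ran from 9.37 through a median of 10.07 to 10.44 in NN. The difference of TAN was -1.48 (limma adjusted p = 0.044) with all TAN and -2.50 without TAN 3, and it was 1.60 with TAN 3 as the only TAN. The call of Csf2rb in TAN therefore rested on which TAN entered, and it was lost, with a limma adjusted p of 0.16, 0.19 and 0.11, without TAN 1, TAN 2 or TAN 4, and, at 0.053 to 0.073, without any one of G-MDSC 2 to 4 or NN 1 to NN 5. In G-MDSC the difference was 0.81 (limma adjusted p = 0.32), and without TAN 3 in the model it was called (limma adjusted p = 0.0053).

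Genes for growth factors and chemoattractants of eosinophils, which act on these cells from outside, were mostly higher in TAN. Of 7 measured, 6 rose in TAN, where 36.9% of all genes were called higher, and in G-MDSC 2 of 7 rose, Ccl24 and Ccl5, where 18.3% of all genes did. Ccl24, or eotaxin-2, a ligand of CCR3, rose by 3.75 in TAN (limma adjusted p = 1.9e-11) and by 2.10 in G-MDSC (limma adjusted p = 4.8e-08). Ccl5, another CCR3 ligand, rose by 3.72 in TAN (limma adjusted p = 2.5e-08) and by 3.29 in G-MDSC (limma adjusted p = 2.8e-07). Ccl8 rose by 7.48 (limma adjusted p = 3.7e-14) and Ccl7 by 7.08 (limma adjusted p = 6.6e-16) in TAN, whereas in G-MDSC they differed by -0.10 (limma adjusted p = 0.72) and 0.25 (limma adjusted p = 0.12). Ccl11, or eotaxin-1, was called in neither comparison with NN.

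Other products linked to eosinophils were mixed. Of 8 measured, Tgm2, Ltc4s and Retnla rose in TAN and Chil3, Alox5 and Alox15 fell, while in G-MDSC Tgm2, Ltc4s and Alox5ap rose and Chil3 fell. In TAN, 3 of 8 higher and 3 of 8 lower compare with 36.9% and 26.2% of all genes, and in G-MDSC 3 of 8 higher and 1 of 8 lower compare with 18.3% and 19.7%. Chil3, a chitinase-like protein also abundant in neutrophil precursors, fell by 5.45 in TAN (limma adjusted p = 8.7e-11) and differed by -2.40 in G-MDSC (limma adjusted p = 3e-06). Tgm2, a transglutaminase, rose by 5.02 in TAN (limma adjusted p = 3.4e-13) and by 1.70 in G-MDSC (limma adjusted p = 2.4e-07). Ltc4s, the synthase of leukotriene C4, rose by 2.60 in TAN (limma adjusted p = 9.3e-09) and by 1.01 in G-MDSC (limma adjusted p = 0.00057). Retnla was at least 2.81-fold higher in TAN (limma adjusted p = 2.7e-08), with every NN below background.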

How the data were processed

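RNA of the isolated cells was labeled with biotin and hybridized to Illumina arrays, 15 arrays of 25697 probes. The deposited array files hold intensity signals per probe, summarized by the authors in BeadStudio, neither background-subtracted nor normalized. The authors' own table of 16322 probes holds normalized intensity on a linear scale, quantile normalized and filtered by them on detection and on a ratio of at least 1.2 between some pair of arrays; it served as the probe filter and, after log2, as an alternative. Here signals were corrected with limma 3.58.1 (normexp, offset 50) in R 4.3.3, quantile normalized and fitted with lmFit and eBayes as group means over 16317 probes (5 without a 1.2-fold ratio were dropped). Of these, 15321 had a gene name in the platform annotation, updated through gene IDs, and 996 did not; genes with several probes are given by the probe of highest mean signal. Groups came from the sample labels. Each array is a separate pool of RNA, so that p-values measure the spread between pools. The probe tests were tested on simulated data. Promoter sequences are RefSeq's (GRCm38.p6), aligned with Biopython 1.88.

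The 9 genes and all lists were chosen with earlier results of these data known. All 9 were to be named. From each other list the text names at most 4 called genes by the largest difference and 2 others by signal, and the 10 genes most like Prg2; genes named beyond this account for a small count or were picked out after their values were seen. Alternatives covered background correction, normalization, probe filter, array weights, background level, replicate block, groups fitted and leaving out each array.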

Additional observations from a re-analysis of the deposited data

Results flagged for a closer look

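Among 24 groups of 4 to 7 arrays checked for a single array far from the rest, 2 stood out, and chance flags about 1 in 20 such groups. Prg3 in G-MDSC 1 had a log2 signal of 6.93, with the nearest G-MDSC at 6.36, so that the gap took up 0.869 of the group's range. G-MDSC 1 was also the highest G-MDSC for Prg2 and Ear6, at 9.51 and 8.99. Ear10 in TAN 3 had a log2 signal of 6.95, with the nearest TAN at 8.01 and a gap of 0.883 of the range. TAN 3 was also the lowest TAN for Prg2, at 6.38. Rnase2a moved in opposite directions against NN in the 2 tumor-related populations, up in every TAN and down in every G-MDSC, and the difference of TAN from G-MDSC itself was 5.26 on the log2 scale (limma adjusted p = 3e-13).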

How the results depend on the processing

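The count of eosinophil genes called was 7 in TAN and 5 in G-MDSC against NN, and stayed between 6 and 7 in TAN and between 5 and 6 in G-MDSC over 29 alternatives each. Between TAN and G-MDSC it was 5, and it became 2 when background level was a block, 2 with TAN 3 alone and 3 with only the 2 groups compared; leaving out each array in turn gave 4 to 5. Replicate numbers do not pair these arrays (the deviations of 12 same-numbered pairs correlated at -0.309 to 0.266, over 0.1 in 4), and a replicate block gave 7, 5 and 5 calls in TAN against NN, G-MDSC against NN and TAN against G-MDSC. Signs changed as follows, all but Csf2rb in differences that were not called. In G-MDSC against NN, Ccr3 was -0.03 with the replicate block, with background level as a block and within high background, and -0.08 to 0.11 with each array left out; Il5ra was 0.01 with and within background level; Ccl8 was -0.22 to 0.02 with each array left out. In TAN against NN, Csf2rb was 1.60 with TAN 3 as the only TAN. In TAN against G-MDSC, Prg2 was 0.20 with array weights and 0.28 without TAN 3 and G-MDSC 1, and Epx was 0.17 with background level as a block. Over the 7 genes and 3 comparisons, 571 alternatives kept direction and side of the threshold, 18 lost the call (11 of them Prg3 in TAN against G-MDSC), 2 gained it and 11 changed sign. Over all genes the calls were 6544 with array weights against 4211 in G-MDSC against NN, 4611 with TAN 3 as the only TAN against 6978 in TAN against NN, and 3815 (background level as a block) and 3939 (TAN 3 alone) against 6533 in TAN against G-MDSC. Plain background subtraction enlarged the falls of dim genes, to -8.93 for Prg3 and -10.86 for Ear6 in TAN against NN. The cause of these changes was not tested. Signal near background limits Prg3, Epx, Ear6, Il5ra and Ccr3 in TAN.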
